A study of Mus musculus with 8 samples.

Results

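The genes described here encode lineage transcription factors that bind DNA through domains other than the homeodomain. They were chosen by symbol: every probe set of the array with exactly 1 gene symbol matching the Sox, Fox, T-box, Klf, NFI, RFX, Neurod and Neurog, Hes and Hey, Id, Tcf, Ebf, Zic, Gata, numbered nuclear receptor (Nr) or Ror families, with Sox11, Foxf1, Tbx18, Tcf21, Neurod2, Zic1, Klf14 and Nr4a3 set aside. This gave 129 probe sets of 70 genes, out of 22511 probe sets in all. No probe set matched Hes, Hey, Id, Neurog or Tbr1, and Neurod4 was the only Neurod gene. The choice by letters also took in 10 genes (13 probe sets) whose product is not a lineage factor: the noncoding RNAs Foxl2os, Gata5os, Sox6os and Sox2ot, the chromatin complex subunits Gatad2a and Gatad2b, and Nr2c2ap, Rfxap, Tcf19 and Tcf25. These were kept and are named as such.

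Sox factors bind DNA through a high mobility group box: the Sox1 group marks neural progenitors, Sox5 and Sox6 act in cortical projection neurons and interneurons, and Sox8 belongs to the group of Sox9 and Sox10 that acts in glia and neural crest. Forkhead (Fox) factors range from regulators of the mesenchyme and the ovary to Foxp1, Foxp2 and Foxp4, which act in postmitotic neurons of cortex, striatum and cerebellum. Nuclear receptors bind hormones or act as orphans without a known hormone, and the Ror receptors are required for Purkinje cells (Rora) and for layer 4 of the sensory cortex (Rorb). NFI factors act in the onset of glial differentiation and in cortical projection neurons, and RFX factors are known for the control of cilia genes.

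The samples were neonatal cortex, which the labels also call forebrain, neonatal cerebellum, and whole brain at 15.5 and at 13.5 days post coitum (dpc). Each of these 4 contexts has 2 Affymetrix 430B arrays, 1 per duplication. All mice were T9H/+ heterozygotes, carriers of a chromosome translocation, with either a paternal duplication of proximal chromosome 7 and a maternal one of proximal chromosome 15 (called paternal-7 here) or the reverse (maternal-7). No array came from an animal without a duplication, the series has no biological replicates within a context and duplication, and the labels do not say whether animals were pooled. The p-values below therefore measure only the spread between these 8 arrays, part of which may be technical.

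The values are MAS5 signals, an average of perfect-match minus mismatch brightness for each probe set. Array medians lay between 229.8 and 286. Tests were run on the 13221 of 22511 probe sets (58.7%) that exceeded the median of their array in 2 or more of 8 cases. The tissue labels were checked with marker genes. Of 9 tested cortex markers, among them the member Rorb, 2 were called higher in cortex than in cerebellum. These were Bcl11b by 1.91 and Slc17a7 by 2.34 on the log2 scale (limma adjusted p = 0.0342 and 0.0293). Of 4 tested cerebellar markers 1 was called, the factor Tfap2b, which differed by -4.10 (limma adjusted p = 0.00984). It read 363 and 339 in cortex and 6639 and 7313 in cerebellum. Pax3, Lhx9 and Calb1 differed by -1.86, -1.16 and -0.42 and were not called. Microglia and red blood cell markers had no probe set here, and of 15 meningeal and mesenchymal markers 3 did. Their summed signal was 3025 to 3289 at 13.5 dpc, 526 to 600 at 15.5 dpc, 421 to 577 in cortex and 356 to 558 in cerebellum. The mesenchymal factor Prrx1 made up most of it at 13.5 dpc, Prrx1 and Dcn together elsewhere, and Col1a2 was below the array median on all 8 arrays.

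Of the 129 member probe sets 82, of 50 genes, were tested (63.6%, against 66.7% of all probe sets with 1 symbol). Signals were above the array median on all 8 arrays for 58 of them and on 2 to 7 arrays for 24. A further 9 were above it on 1 array and 38 on none, and 20 genes had no tested probe set. Among these were Sox9, a factor of early glia, the glucocorticoid receptor Nr3c1 with all 3 of its probe sets, the heart and gut factors Gata6 and Tbx20, and Neurod4, a neurogenic factor with a mean signal of 11.8. A low signal says only that these probes did not read above the array median, since probe sets differ in how well they bind.

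Among the tested families, the probe set with the highest mean signal was above the array median on all 8 arrays, except Tcf25 in the Tcf family, on 7. Each pair of signals in this report is the paternal-7 array and then the maternal-7 array. The nuclear receptor Nr2c2, an orphan receptor also called TR4, read 4556 and 7301 at 13.5 dpc, 4974 and 7651 at 15.5 dpc, 9184 and 8599 in cortex and 8456 and 8589.8 in cerebellum. Nfib, needed for the maturation of forebrain and lung, read 5008 and 5295 at 13.5 dpc, 6661 and 4905 at 15.5 dpc, 6569 and 5588 in cortex and 3292 and 2605 in cerebellum on its probe set with the highest signal. Foxp2, known for its role in speech in humans, read 4027 and 4913 at 13.5 dpc, 3575 and 4304 at 15.5 dpc, 4824 and 5506 in cortex and 5683 and 6208 in cerebellum. Foxp2 probe set A was highest in cerebellum and Nfib lowest. Of these 3 probe sets only that of Nfib differed across contexts in the limma F test described below, where Foxp2 was called on its probe set C.

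In the RFX, Klf and Sox families Rfx7, Klf3 and Sox6 had the highest signals. Rfx7 probe set A (probe sets of a gene are lettered from A by falling mean signal) read 3096 and 3166 at 13.5 dpc, 2358 and 3626 at 15.5 dpc, 4271 and 4605 in cortex and 3128 and 3589 in cerebellum. Klf3, a repressor of the Krüppel-like family, read 4477 and 4777 at 13.5 dpc, 2470 and 2855 at 15.5 dpc, 2787 and 3074 in cortex and 2333 and 2413 in cerebellum. Sox6, a partner of Sox5, read 1522 and 1828 at 13.5 dpc, 2373 and 2048 at 15.5 dpc, 1553 and 1467 in cortex and 1352 and 1403 in cerebellum. Klf3 was highest at 13.5 dpc on both arrays, and Sox6 at 15.5 dpc on both.

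In the smaller Ebf, Zic and Gata families Ebf1, Zic5 and Gatad2b had the highest signals. Ebf1, a factor of early neurons and B cells, read 1452 and 1364 at 13.5 dpc, 968 and 1274 at 15.5 dpc, 927 and 1254 in cortex and 866 and 1129 in cerebellum. Zic5, a zinc finger factor of the dorsal neural tube, read 428 and 973 at 13.5 dpc, 939 and 1261 at 15.5 dpc, 798 and 952 in cortex and 1063 and 1022 in cerebellum. Gatad2b, a subunit of the NuRD chromatin complex, read 2215 and 2819 at 13.5 dpc, 1752 and 2173 at 15.5 dpc, 3310.1 and 3146 in cortex and 2410.2 and 2678 in cerebellum. None of these 3 differed across contexts at an adjusted p under 0.05 in the limma F test described next.

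Across the 4 contexts, 26 of 82 tested members (31.7%), of 21 genes, differed by the limma moderated F test at an adjusted p under 0.05, against 21.6% of all 13221 tested probe sets. The fit had context and duplication as terms on log2(signal + 58.5), with Benjamini-Hochberg adjustment across every tested probe set. At an unadjusted p under 0.05 there were 35 members (42.7%, against 38.6% of all). The called members were led by Foxd2, Foxl2os, Rorb, Sox1, Rfx4, Rfxap and Nr4a2. They included 6 of 18 nuclear receptor, 6 of 21 Fox, 4 of 9 Sox, 4 of 8 RFX and 2 of 6 NFI probe sets. Leaving out 1 array moved this count to between 3, without the 13.5 dpc paternal-7 array, and 20, and only Foxd2 was called in all 8 of those fits. In 5 of the 8 the share of members was below that of all probe sets, as with 3.66% against 9.06% without that array, and in 3 it was above, as with 24.4% against 20.4% without the 15.5 dpc maternal-7 array. Counting also the tests of stage below, 31 members of 24 genes were called at least once.

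**Figure D1:**
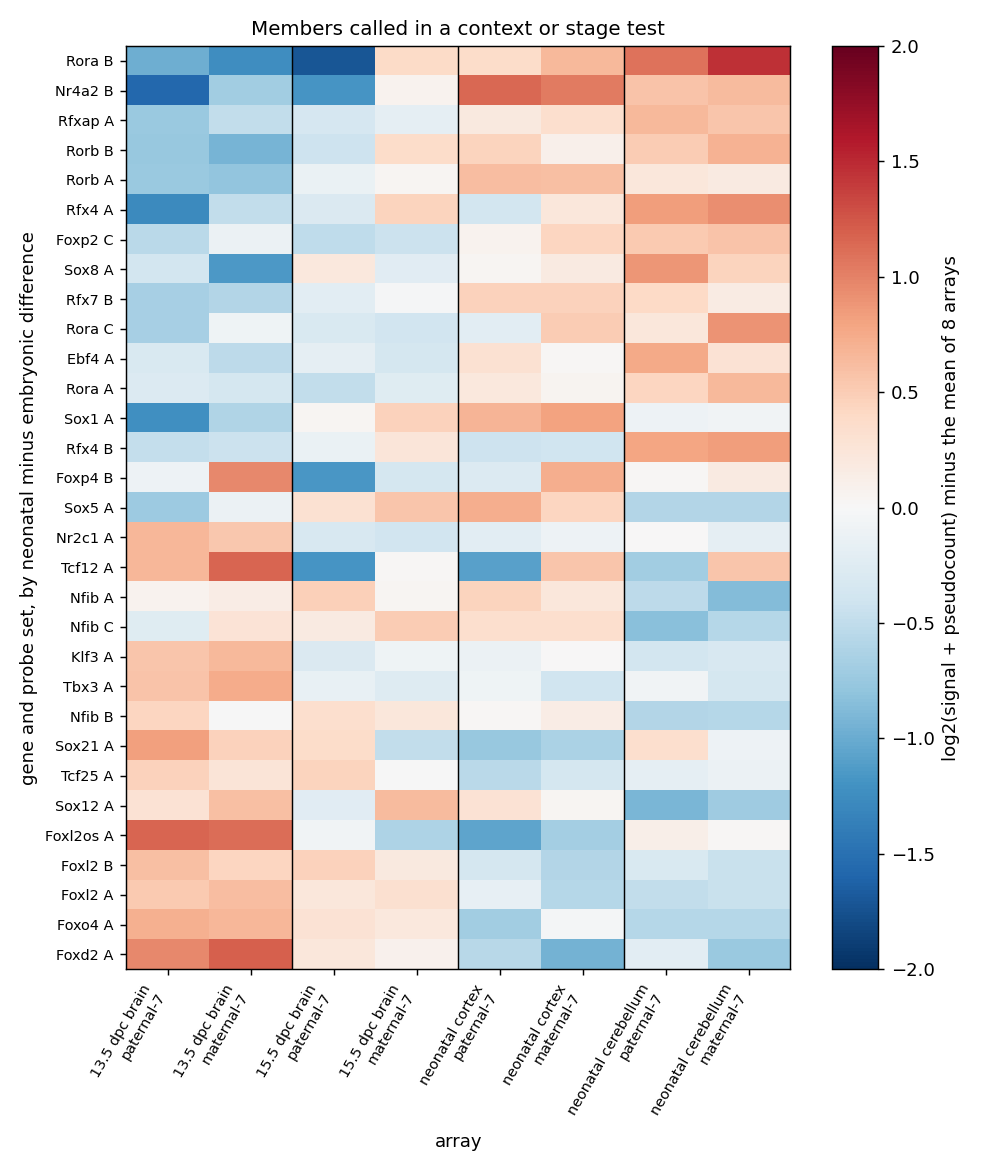
Signals of the 31 members called in the F test or in a stage comparison, as log2(signal + 58.5) minus the mean of the 8 arrays (colour), with arrays in columns in the order of the 4 contexts and members in rows from the highest to the lowest difference of neonatal minus embryonic brain. The upper rows, from Rora B to Sox1 A, are mostly blue in the 4 embryonic columns and red in the 4 neonatal ones. The lowest rows, from Foxl2 B to Foxd2 A, are mostly the reverse. Of the rows between, Klf3 A and Tbx3 A are red mainly at 13.5 dpc, and Nfib B and Sox12 A blue mainly in cerebellum. Single arrays such as 15.5 dpc paternal-7 depart from their partner.

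In neonatal against embryonic brain Rora, Rorb, Nr4a2, Rfx4 and Rfx7 were higher on 1 or more probe sets, and Foxd2, Foxo4 and Foxl2 were lower. The comparison sets 4 neonatal arrays of cortex and cerebellum against 4 embryonic arrays of whole brain, so stage and dissection cannot be told apart. In bulk tissue, fewer cells of a type and less RNA per cell cannot be told apart either. Of the 82 members 22 (26.8%), of 18 genes, were called by limma, 13 higher and 9 lower, against 30.7% of all tested probe sets (14.3% higher and 16.4% lower). At an unadjusted p under 0.05 there were 40 (48.8%, against 45.1%). The median log2 difference was -0.02 over the members and -0.16 over all tested probe sets. Centring each array on its median, which moves every difference up by 0.18, gave 19 higher and 5 lower, and quantile normalization gave 14 and 10. The shares of all probe sets called in these fits were 26.1% and 26.8%.

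The largest non-overlapping rise was that of Nr4a2, an orphan receptor also called Nurr1 that midbrain dopamine neurons require. Probe set B read 1697 and 1562 in cortex and 1114 and 1169 in cerebellum, against 291 and 774 at 15.5 dpc and 207 and 428 at 13.5 dpc. All 4 neonatal arrays were above all 4 embryonic ones, and in both embryonic contexts the paternal-7 array was the lower of the pair. The difference was 1.69 ± 0.25 on the log2 scale (SE), with a limma adjusted p of 0.00426, and it was called in all 8 fits without 1 array. Probe set A of the same gene read 2045 and 1489.5 in cortex and 1330.1 and 1541 in cerebellum, against 1318 and 1330.2 at 15.5 dpc and 994 and 1496 at 13.5 dpc. There the sides overlapped and the difference of 0.30 ± 0.19 was not called (limma adjusted p = 0.243), so the gene's probe sets disagreed in size.

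Rorb was called on both of its probe sets. Probe set A read 928 and 918 in cortex and 699 and 674 in cerebellum, against 528 and 601 at 15.5 dpc and 327 and 313 at 13.5 dpc. Each context had a level of its own, lowest at 13.5 dpc and highest in cortex, and the arrays of a pair lay close together. The difference was 0.82 ± 0.13 (limma adjusted p = 0.00507). Probe set B differed by 0.87 ± 0.20 (limma adjusted p = 0.0209), with 662 and 509.7 in cortex and 697 and 803 in cerebellum, against 341 and 623 at 15.5 dpc and 256 and 220.1 at 13.5 dpc, where 1 maternal-7 array at 15.5 dpc lay inside the neonatal range.

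Rora had 5 tested probe sets, of which 3 were called higher. Probe set B read 549 and 677 in cortex and 932 and 1236 in cerebellum, against 84.5 and 551 at 15.5 dpc and 179 and 139 at 13.5 dpc. The 15.5 dpc pair was split, with the maternal-7 array as high as the lowest neonatal one, and the difference of 1.78 ± 0.36 (limma adjusted p = 0.0125) was lost without the paternal-7 array of either neonatal context. Probe set A read 1158 and 1032 in cortex and 1354 and 1589 in cerebellum, against 688 and 831 at 15.5 dpc and 805 and 767 at 13.5 dpc. Its sides did not overlap, and the difference was 0.68 ± 0.14 (limma adjusted p = 0.0135). Probe set C differed by 0.72 ± 0.18 with a limma adjusted p of 0.0237. Probe sets D and E differed by -0.45 and 0.25 and were not called, so values of 1 gene ran from -0.45 to 1.78.

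The promoters of Nr4a2 and Rorb, the nuclear receptors called without overlap of the sides and in all 8 fits without 1 array, are shown for their GC boxes. The windows run from 250 bases before to 50 bases after the transcription start in RefSeq on GRCm38.p6; the deposited values carry no coordinates. Capitals mark GC boxes, GGGCGG or CCGCCC on the strand shown, of which Nr4a2 (chr2:57123954-57124253, minus strand) has 5, with 2 that overlap, and the upstream start of Rorb (chr19:19111147-19111446, minus strand) has 2.
Nr4a2: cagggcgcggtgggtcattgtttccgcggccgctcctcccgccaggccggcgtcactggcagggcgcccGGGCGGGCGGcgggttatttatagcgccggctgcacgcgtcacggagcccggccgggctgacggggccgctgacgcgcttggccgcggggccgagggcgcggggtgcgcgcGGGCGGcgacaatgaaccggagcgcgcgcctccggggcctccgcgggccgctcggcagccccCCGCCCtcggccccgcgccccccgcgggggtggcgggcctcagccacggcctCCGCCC
Rorb: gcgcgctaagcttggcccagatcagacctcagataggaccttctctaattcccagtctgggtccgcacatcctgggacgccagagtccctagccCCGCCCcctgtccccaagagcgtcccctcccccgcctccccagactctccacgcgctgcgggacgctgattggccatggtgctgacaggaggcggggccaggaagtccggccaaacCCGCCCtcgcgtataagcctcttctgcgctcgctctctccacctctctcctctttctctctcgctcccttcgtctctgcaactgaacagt

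Among the RFX members, 3 of 8 tested probe sets were called higher and none lower, against 14.3% of all probe sets called higher, and their median was 0.40, against -0.16. Without Rfxap, which shares only the letters, 2 of 7 were called higher. Rfx7 probe set B (chromosome 9) read 3007 and 2993 in cortex and 2851 and 2432 in cerebellum, against 1860.3 and 2123 at 15.5 dpc and 1342 and 1415 at 13.5 dpc. Its sides did not overlap and the difference was 0.74 ± 0.13 (limma adjusted p = 0.0086), while probe set A differed by 0.34 ± 0.15 and was not called. Rfx4, which acts in the dorsal midline of the developing brain, read 581 and 906 in cortex and 1410.4 and 1514 in cerebellum on probe set A, against 615 and 1064 at 15.5 dpc and 282 and 527 at 13.5 dpc. The cerebellar arrays alone stood above every embryonic one, and the difference was 0.81 ± 0.16 (limma adjusted p = 0.0117).

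Rfxap (chromosome 3), a subunit of the complex that controls MHC class II genes and a member by its letters only, read 2363 and 2609 in cortex and 3246 and 3046 in cerebellum, against 1606 and 1808 at 15.5 dpc and 1196 and 1435 at 13.5 dpc. The 4 neonatal arrays were the highest 4, and the difference was 0.88 ± 0.13 (limma adjusted p = 0.0045). Foxp2 probe set C (chromosome 6) read 1895 and 2451 in cortex and 2624 and 2688 in cerebellum, against 1244 and 1314 at 15.5 dpc and 1226 and 1657 at 13.5 dpc. Its sides did not overlap, cerebellum was the highest context, and the difference was 0.80 ± 0.14 (limma adjusted p = 0.00721). The other tested Foxp2 probe sets differed by 0.40 (A), 0.47 (B) and -0.02 (D), and A was called under median centring, a stricter filter or a variance trend.

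Ebf4 (chromosome 2), of the family that acts in neuron differentiation, read 1038 and 847 in cortex and 1457 and 1032 in cerebellum, against 725 and 639 at 15.5 dpc and 661 and 561 at 13.5 dpc. The neonatal arrays were the highest 4, and the difference was 0.69 ± 0.13 (limma adjusted p = 0.00991). Sox8, a Sox factor of glia, read 216 and 242 in cortex and 433 and 305 in cerebellum, against 249 and 168 at 15.5 dpc and 147 and 61 at 13.5 dpc. Signals were above the array median on 3 arrays, the sides overlapped, and the fitted difference of 0.78 ± 0.18 (limma adjusted p = 0.0183) stands beside a bound of at least 1.07-fold when embryonic signals are set no lower than their array medians. Sox1, a neural progenitor factor, differed by 0.66 ± 0.15 (limma adjusted p = 0.0198); its values are given with the embryonic ages below.

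Of the 9 lower members 5 were of the Fox family, 5 of its 21 tested probe sets, against 16.4% of all probe sets called lower, with a median of -0.23, against -0.16. They came from 3 Fox factor genes, Foxd2, Foxo4 and Foxl2 (on 2 probe sets), and the noncoding Foxl2os. Foxd2, a forkhead factor of embryonic mesenchyme, read 279 and 199 in cortex and 369 and 238 in cerebellum, against 525 and 468 at 15.5 dpc and 909 and 1077 at 13.5 dpc. All neonatal arrays were below all embryonic ones, 13.5 dpc was the highest context, and the neonatal signals lay near the array medians. The difference was -1.23 ± 0.16 (limma adjusted p = 0.00311). Foxo4 (chromosome X), a factor that insulin signalling keeps out of the nucleus, read 574 and 945 in cortex and 630.1 and 633 in cerebellum, against 1202 and 1129 at 15.5 dpc and 1627 and 1573 at 13.5 dpc. Here too the sides did not overlap, and the difference was -0.94 ± 0.17 (limma adjusted p = 0.00842).

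Foxl2, a factor of ovary, eyelid and pituitary, fell on both of its probe sets. Probe set A read 1736 and 1291 in cortex and 1364 and 1415 in cerebellum, against 2298 and 2440.2 at 15.5 dpc and 2833 and 3021 at 13.5 dpc. Probe set B read 426 and 351 in cortex and 440 and 392 in cerebellum, against 789 and 644 at 15.5 dpc and 871 and 769.7 at 13.5 dpc. Neither overlapped between the sides, and the differences were -0.84 ± 0.15 and -0.84 ± 0.12 (limma adjusted p = 0.00738 and 0.00425). Its antisense neighbour Foxl2os read 63.5 and 99.6 in cortex and 218 and 201 in cerebellum, against 183 and 107 at 15.5 dpc and 511 and 495 at 13.5 dpc, and was above the array median only at 13.5 dpc. It differed by -0.80 ± 0.18 (limma adjusted p = 0.0167), at least 1.14-fold lower with neonatal signals set no lower than their array medians. Both cerebellar signals were above both 15.5 dpc ones, so the sides overlapped.

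The windows of Foxd2 and Foxl2 are shown because all neonatal arrays of these genes were below all embryonic ones, and because Foxl2 shares its upstream region with Foxl2os. The Foxd2 window (chr4:114908849-114909148, minus strand) has GC boxes, CCGCCC, in capitals. In the Foxl2 window (chr9:98955357-98955656, plus strand) capitals mark instead the 204 bases that also lie in the window of Foxl2os, whose start is 297 bases away on the minus strand of chromosome 9 and which is read away from Foxl2.
Foxd2: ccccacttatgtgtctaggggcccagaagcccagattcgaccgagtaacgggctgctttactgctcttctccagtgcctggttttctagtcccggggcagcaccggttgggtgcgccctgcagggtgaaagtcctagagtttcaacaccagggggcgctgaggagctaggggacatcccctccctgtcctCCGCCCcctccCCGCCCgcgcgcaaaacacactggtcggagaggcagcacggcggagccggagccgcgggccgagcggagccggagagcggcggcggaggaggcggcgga
Foxl2: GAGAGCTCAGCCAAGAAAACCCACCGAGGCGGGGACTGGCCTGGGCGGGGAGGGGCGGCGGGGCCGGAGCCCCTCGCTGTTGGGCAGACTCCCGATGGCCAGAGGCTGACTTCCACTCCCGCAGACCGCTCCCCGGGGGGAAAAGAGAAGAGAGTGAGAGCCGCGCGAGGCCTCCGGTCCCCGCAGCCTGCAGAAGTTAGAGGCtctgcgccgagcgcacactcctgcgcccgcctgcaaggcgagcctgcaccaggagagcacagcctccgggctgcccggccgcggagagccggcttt

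Further lower members had smaller differences. Tcf25, a protein of ribosome quality control and a member by its letters only, read 220.3 and 259 in cortex and 299 and 316 in cerebellum, against 490.1 and 344 at 15.5 dpc and 497 and 426 at 13.5 dpc. Its sides did not overlap, and the difference was -0.58 ± 0.15 (limma adjusted p = 0.0305). Tcf25 was not called under quantile normalization or median centring. Sox12, of the group of Sox4 that acts in young neurons, Nfib probe set B and Klf3 probe set A differed by -0.65, -0.49 and -0.40 with overlapping sides (limma adjusted p = 0.046, 0.0439 and 0.0482). None of these was called under median centring, and Sox12 was not called under quantile normalization either. Klf3 was not called in any of the 8 fits without 1 array, whereas 9 of the 22 calls, of 8 genes, were made in all of them: Foxd2, both probe sets of Foxl2, Foxo4, Foxp2 C, Nr4a2 B, Rfx7 B, Rfxap and Rorb A.

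**Figure D2:**
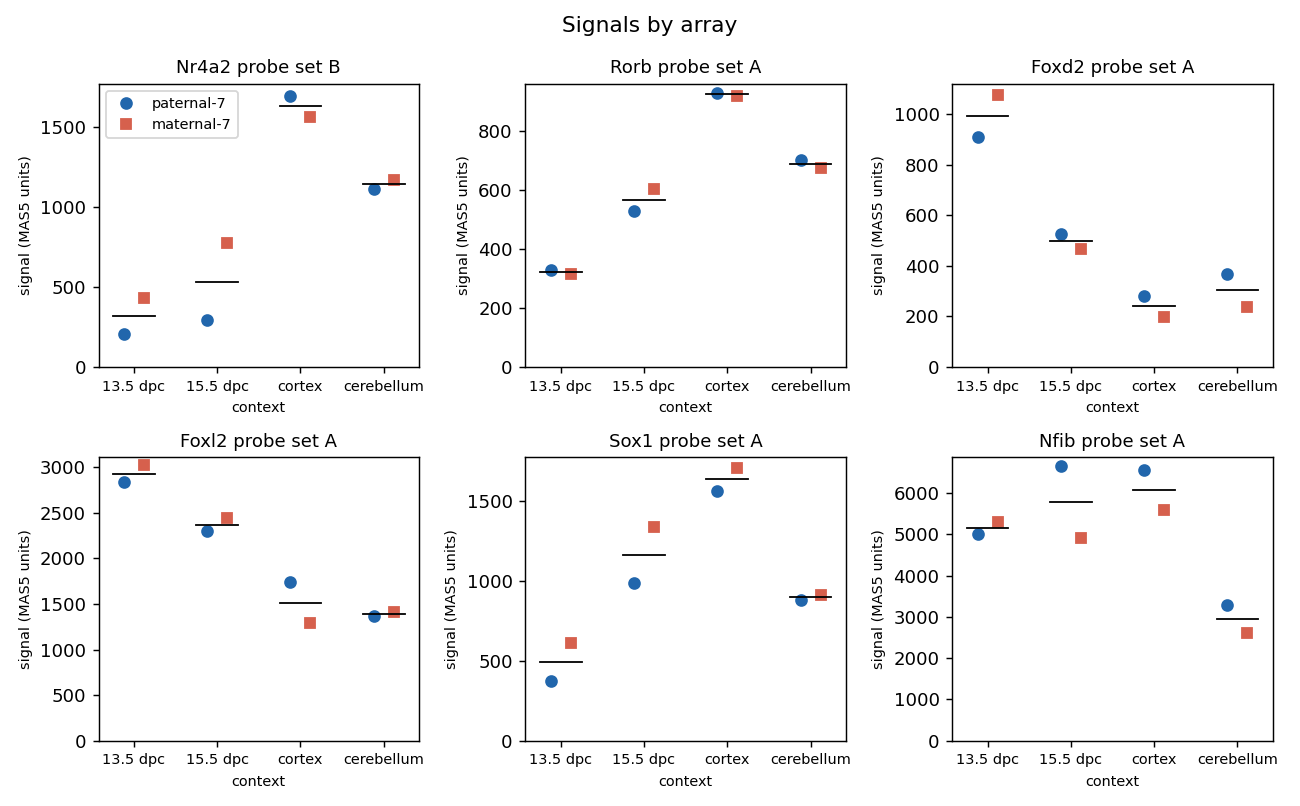
MAS5 signal (vertical axis, linear, from 0) of 6 members in the 4 contexts (horizontal axis), with the paternal-7 array as a blue circle, the maternal-7 array as a red square and their mean as a bar. Nr4a2 B and Rorb A are highest in cortex, Foxd2 and Foxl2 A are highest at 13.5 dpc, Sox1 is lowest at 13.5 dpc, and Nfib A is lowest in cerebellum.

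By non-overlap of the sides, all neonatal arrays were above all embryonic ones for 10 members (12.2%), against 11.8% of all tested probe sets, and below them for 6 (7.32%), against 16.5%. By limma 14.3% of all tested probe sets were called higher and 16.4% lower, with a median of -0.16. Among the families, the nuclear receptors had 6 of 18 called higher and none lower, with a median of 0.28. The family had 9 tested genes, and its calls came from Rora (3 probe sets), Rorb (2) and Nr4a2 (1). The Sox family had 2 higher and 1 lower of 9. The Klf, NFI and Tcf families had 1 lower each, of 7, 6 and 4 tested, and the T-box, Zic and Gata members had no call. Tbx3, a T-box factor of limb and hypothalamus, and Tbx4, of the hind limb, differed by -0.45 and -0.49 (limma adjusted p = 0.0511 and 0.0557). The 20 genes with 2 or more tested probe sets had differences of 1 sign in 15 cases, with a median span of 0.27 between their highest and lowest, and of 9 such genes with a call only Foxl2 and Rorb were called on all.

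**Figure D3:**
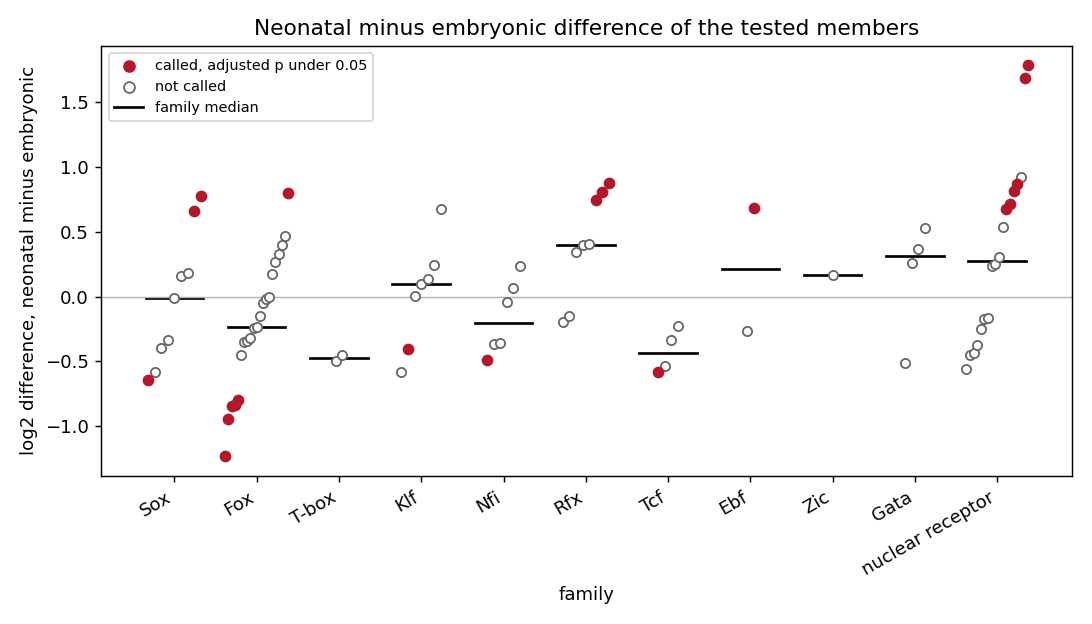
Log2 difference of neonatal minus embryonic brain for the 82 tested members (vertical axis) by family (horizontal axis), filled red where called at an adjusted p under 0.05 and open where not, with the family median as a bar. The called nuclear receptors and RFX members lie above 0, and 5 of the 6 called Fox members lie below it.

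Markers of other cells moved with stage. All 4 tested neuron markers were called higher in neonates, with a summed signal of 52597 to 56866 in cortex and 56578 to 62220 in cerebellum, against 34483 to 39611 at 15.5 dpc and 15362 to 22365 at 13.5 dpc. The tested astrocyte markers, 2 of 3 on the array, were called higher as well, as was 1 of 3 oligodendrocyte markers. Of the 2 tested neural progenitor markers Slc1a3 was called higher in neonates (1.15, limma adjusted p = 0.00273) and Top2a lower (-0.71, limma adjusted p = 0.0409). The mesenchymal factor Prrx1 differed by -1.83 (limma adjusted p = 0.00104), with 13.5 dpc as the only high context. Dcn, the other tested mesenchymal marker, differed by -0.12 and was not called (limma adjusted p = 0.512). Choroid plexus markers, 3 of 9 on the array, the 1 endothelial and the 1 tested muscle or skin marker had no call in this comparison. Their part in the differences of the members was not tested.

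Between the embryonic ages, 6 of 82 members (7.32%) were called, 1 higher and 5 lower at 15.5 than at 13.5 dpc, against 6.59% of all tested probe sets (3.52% higher and 3.07% lower). The pairs did not overlap for 12 members in the upward direction (14.6%, against 22.5% of all) and for 28 in the downward one (34.1%, against 24.1%). The calls rested on 2 arrays an age: a fit of the 4 embryonic arrays alone called 0 members and 0% of all probe sets. None of the 6 calls was kept in all 8 fits without 1 array, and those of Foxl2os, Foxp4, Klf3 and Nr2c1 were kept in none. At an unadjusted p under 0.05 there were 21 members (25.6%, against 23% of all).

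Sox1 was the member called higher at 15.5 dpc. It read 987 and 1336 at 15.5 dpc and 374 and 612 at 13.5 dpc, with 1565 and 1707 in cortex and 883 and 911 in cerebellum in neonates. Both 15.5 dpc arrays were above both 13.5 dpc arrays, cortex was higher still and cerebellum lay below the 15.5 dpc pair. The difference was 1.17 ± 0.22 (limma adjusted p = 0.0321). Its window on GRCm38.p6 (chr8:12395269-12395568, plus strand) is shown for its 3 GC boxes, in capitals.
Sox1: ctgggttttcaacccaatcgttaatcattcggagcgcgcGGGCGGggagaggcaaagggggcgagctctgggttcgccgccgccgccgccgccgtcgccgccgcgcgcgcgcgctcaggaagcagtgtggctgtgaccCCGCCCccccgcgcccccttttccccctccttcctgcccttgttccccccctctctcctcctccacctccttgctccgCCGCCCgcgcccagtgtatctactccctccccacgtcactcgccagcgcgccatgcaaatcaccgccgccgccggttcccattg

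The largest falls were those of Tcf12 and Foxl2os. Tcf12, the E-protein that pairs with lineage basic helix-loop-helix factors, read 71.8 and 244 at 15.5 dpc and 413 and 605 at 13.5 dpc on probe set A. Both 15.5 dpc signals were below their array medians, so the fitted -1.49 ± 0.28 (limma adjusted p = 0.0339) corresponds to at least 1.87-fold lower. Probe set B differed by -0.05 and was not called. Foxl2os read 183 and 107 at 15.5 dpc and 511 and 495 at 13.5 dpc. It differed by -1.49 ± 0.25 (limma adjusted p = 0.0264), at least 1.88-fold lower, whereas Foxl2 itself differed by -0.30 and -0.19 and was not called.

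Nr2c1, an orphan receptor related to Nr2c2, read 544 and 518 at 15.5 dpc and 1132 and 1041 at 13.5 dpc on probe set A. The pairs were far apart and the arrays within each pair close, with a difference of -0.96 ± 0.18 (limma adjusted p = 0.0339) that probe set B did not show (-0.09). Klf3 read 2470 and 2855 at 15.5 dpc and 4477 and 4777 at 13.5 dpc, a difference of -0.79 ± 0.18 on probe set A (limma adjusted p = 0.0484), while its probe set B differed by 0.44 and was not called. Foxp4, expressed in maturing neurons and in lung, had probe sets that opposed each other. Probe set B read 161 and 323 at 15.5 dpc and 397 and 895 at 13.5 dpc and differed by -1.19 ± 0.26 (limma adjusted p = 0.0472), while probe set C read 995 and 679 at 15.5 dpc and 228 and 237 at 13.5 dpc and differed by 1.60 without a call, and probe set A by -0.33.

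Tbx3 and Foxd2 had non-overlapping embryonic ages without a call. Tbx3 read 735 and 671 at 15.5 dpc and 1245 and 1398 at 13.5 dpc, and Foxd2 differed by -0.92 (limma adjusted p = 0.0554 for Tbx3 and 0.068 for Foxd2). The mesenchymal marker Prrx1 fell by 2.90 on the log2 scale in the same comparison (limma adjusted p = 0.0058), with signals between 172 and 325 on the other 6 arrays, against 2759 and 2646 at 13.5 dpc. Dcn, the other tested mesenchymal marker, differed by -0.47 and was not called (limma adjusted p = 0.22). The part of Prrx1 in the lower signals of Foxd2, Tbx3, Foxl2os and Klf3 at 15.5 dpc was not tested.

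Between neonatal cortex and cerebellum no member was called, against 0.325% of all tested probe sets, although 14 members of 10 genes (17.1%, against 7.65% of all) had an unadjusted p under 0.05 in limma. The arrays did not overlap for 25 members higher in cortex (30.5%, against 19.6% of all) and 20 lower (24.4%, against 21.4%). The median absolute difference was 0.26 for members and 0.18 for all tested probe sets. Nfib probe sets A and C came under the threshold with a stricter filter (limma adjusted p = 0.0496 and 0.0465). The same held with a variance trend with intensity (limma adjusted p = 0.0206 and 0.0409). The 0.325% of the main fit does not apply to those fits, whose own shares are not given here.

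Nfib had all 3 probe sets higher in cortex. Probe set A (chromosome 4) read 6569 and 5588 in cortex and 3292 and 2605 in cerebellum. Probe set C read 1522 and 1521 in cortex and 645 and 779 in cerebellum. Probe set B read 2814 and 3074 in cortex and 1811 and 1841 in cerebellum. In each case both cortical arrays were above both cerebellar ones, with differences of 1.03 ± 0.20, 1.04 ± 0.20 and 0.67 ± 0.21 for A, C and B (limma adjusted p = 0.164, 0.158 and 0.44). Its relative Nfia had differences of 0.25, -0.08 and 0.37 for A to C.

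Sox5, a factor of deep-layer cortical projection neurons, read 1311 and 1051 in cortex and 493 and 489 in cerebellum. Its cortical arrays were above the cerebellar pair, whose values almost coincided, and the difference of 1.17 ± 0.25 was not called (limma adjusted p = 0.212). Sox12 read 557 and 457 in cortex and 206 and 249 in cerebellum, a difference of 0.98 ± 0.28. Nr2e1, the receptor of forebrain neural stem cells also called Tlx, differed by 0.96 ± 0.28 and 0.63 ± 0.21 on its B and A probe sets, and Sox1 by 0.83 ± 0.22. Rfx3, a regulator of cilia genes, differed by 0.97 ± 0.38 and the mineralocorticoid receptor Nr3c2 by 1.16 ± 0.58. All of these were higher in cortex on both arrays and none was called (the lowest limma adjusted p of the 4 Sox12, Nr2e1 and Sox1 probe sets was 0.346).

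On the cerebellar side stood Rfx4, Sox21 and Rora. Rfx4 probe set B read 79.7 and 81.4 in cortex and 259 and 269.9 in cerebellum, with a difference of -1.22 ± 0.19 (limma adjusted p = 0.0799, the lowest of any member in this comparison), at least 1.14-fold lower with cortical signals set no lower than their array medians. Probe set A read 581 and 906 in cortex and 1410.4 and 1514 in cerebellum, a difference of -0.95 ± 0.23. Sox21, which counters the Sox1 group and promotes neuron formation, read 801 and 876 in cortex and 1774 and 1287 in cerebellum. The cerebellar arrays were above the cortical ones in each of these 3 probe sets. All 5 tested Rora probe sets, of the receptor that Purkinje cells require, had values below 0, from -0.76 to -0.11, and none was called.

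**Figure D4:**
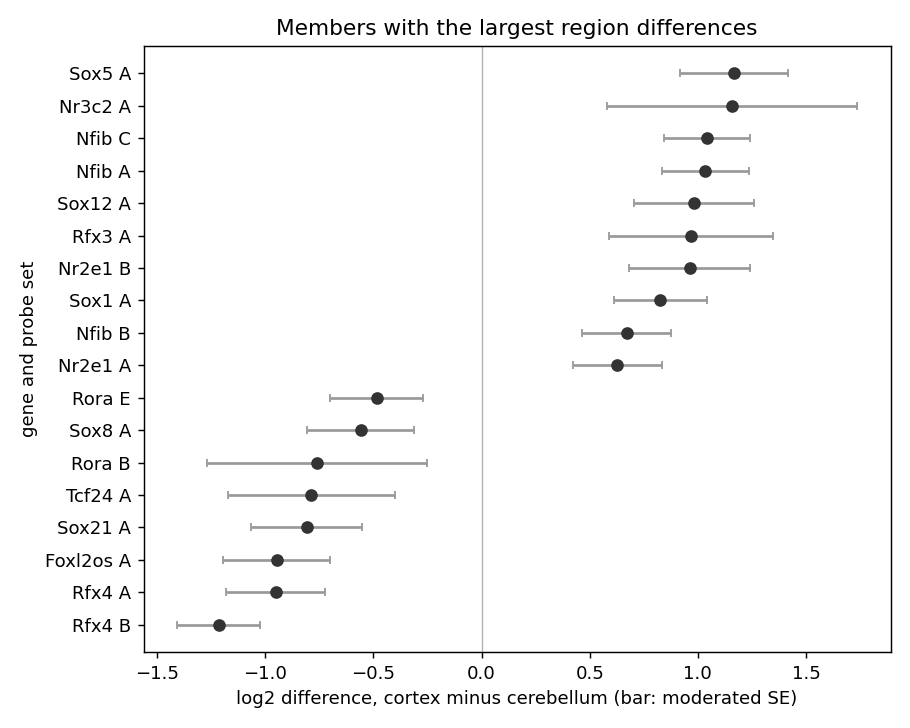
Log2 difference of cortex minus cerebellum (horizontal axis) for the members with the largest differences in each direction (vertical axis), with the moderated SE from 8 arrays as a bar. Sox5, Nr3c2 and Nfib probe sets C and A lie highest and Rfx4, Foxl2os and Sox21 lowest. No member shown was called.

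The 6 members called in the F test over the contexts and in neither stage comparison were Nfib A and C, Sox5, Sox21, Tbx3 and Rfx4 B. On both arrays Nfib A and C were lowest, and Rfx4 B highest, in cerebellum. Sox5 read 442 and 700.2 at 13.5 dpc, 965 and 1153 at 15.5 dpc, 1311 and 1051 in cortex and 493 and 489 in cerebellum, high at 15.5 dpc and in cortex. Sox21 read 2515 and 1944 at 13.5 dpc, 1808 and 971 at 15.5 dpc, 801 and 876 in cortex and 1774 and 1287 in cerebellum, highest at 13.5 dpc and lowest in cortex. Over all 82 tested members the highest context by mean was 13.5 dpc for 30, 15.5 dpc for 14, cortex for 23 and cerebellum for 15. That is 36.6%, 17.1%, 28% and 18.3% of members in this order, against 41.1%, 23.7%, 17.1% and 18.1% of all tested probe sets.

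Paternal-7 against maternal-7 brain called no member, against 0.00756% of all tested probe sets (1 of 13221), and 8 members had an unadjusted p under 0.05 in limma (9.76%, against 8.68% of all). A difference of 1 sign in all 4 contexts was found for 4 members higher in paternal-7 (4.88%, against 9.67% of all) and 11 lower (13.4%, against 9.08%). The median difference was -0.10 for the members and 0.01 for all tested probe sets, and 25 of 82 lay above 0 (30.5%, against 51.9%). Without the pair of any 1 context this count was 27 to 30. It was 37 of 82 in the neonatal arrays alone and 27 of 82 in the embryonic ones alone. The test of whether the duplication effect differed between neonatal and embryonic brain called 0 members and 0% of all probe sets, with 6 members at an unadjusted p under 0.05 (7.32%, against 9.14% of all).

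Tcf12 probe set A had the largest value. It read 413, 71.8, 80.6 and 125 in paternal-7 at 13.5 dpc, 15.5 dpc, cortex and cerebellum, against 605, 244, 377 and 375 in maternal-7. The paternal-7 array was lower in each pair, and in 3 of the 4 contexts it lay below its array median. The difference was -1.15 ± 0.20 (limma adjusted p = 0.532). Foxp4 probe set B read 397, 161, 345 and 439.6 in paternal-7, against 895, 323, 748 and 494 in maternal-7 in the same order, lower in 4 of 4 contexts with a difference of -0.75 ± 0.19. Klf12 probe set B, of a repressor in the Krüppel-like family, differed by -0.60 ± 0.22, Rfx4 A by -0.55 ± 0.16, Sox1 by -0.30 ± 0.15 and Rfx7 A by -0.24 ± 0.15.

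In the other direction Ebf4, Foxk2 B, Foxl2 B and Gatad2b B were higher in paternal-7 in 4 of 4 contexts, by 0.28, 0.21, 0.21 and 0.11, none of them called. Ebf4 read 661, 725, 1038 and 1457 in paternal-7, against 561, 639, 847 and 1032 in maternal-7 in the same order of contexts. Chromosome 7 holds 3 tested members, and chromosome 15 holds no member. Sox6 differed by -0.01 and -0.33 on its 2 probe sets and Nr2f2, an orphan receptor of interneuron progenitors, by -0.36, with no call. The labels give no breakpoints, so whether these genes lie in the duplicated segment is not stated here.

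**Figure D5:**
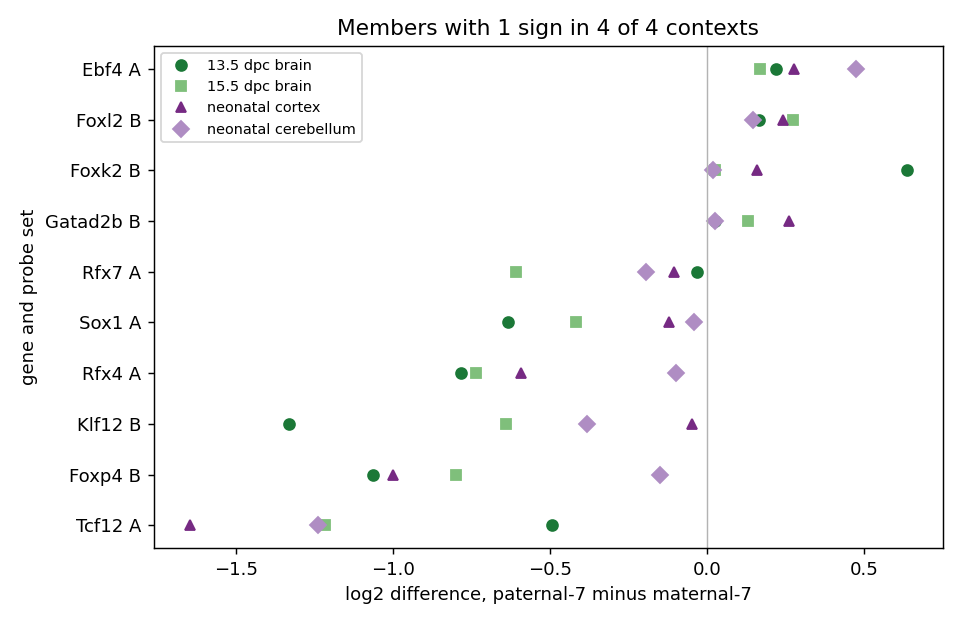
Log2 difference of paternal-7 minus maternal-7 (horizontal axis) in each of the 4 contexts (symbols) for the 10 members named for 1 sign in all contexts (vertical axis). Tcf12 A, Foxp4 B and Klf12 B lie farthest below 0, the 4 members above 0 mostly lie within 0.5, and no difference shown was called.

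Genes of pathways and families related to lineage factors were looked up from lists, and few genes of each list were tested. Over all tested probe sets 14.3% were called higher in neonates and 16.4% lower. At 15.5 against 13.5 dpc 3.52% were called higher and 3.07% lower. The Notch list was made for genes upstream of Hes and Hey, which have no member here. A link of the listed genes to the members was not tested. Of 25 Notch pathway genes 6 were on the array and 2 were tested, both called lower in neonates: the ligand Jag1 with a log2 difference of -1.29, and Rbpj, the DNA-binding effector, with -0.66 (limma adjusted p = 0.00673 and 0.0214). Jag1 was also called lower at 15.5 than at 13.5 dpc (-1.5, limma adjusted p = 0.0411). Of 4 tested basic helix-loop-helix genes, partners of Tcf12 among them, Npas3 was called higher in neonates and Hand2, of heart and neural crest, lower in neonates and at 15.5 dpc. Of 6 tested corepressor and Wnt genes, the scaffold Apc was called higher and the coactivator Bcl9l lower in neonates, and the Wnt effector Lef1 lower at 15.5 dpc.

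For the nuclear receptors, 8 receptors with common names were tested. Esrrg was called higher in neonates (0.81, limma adjusted p = 0.0283) and Ppard, a fatty acid sensor, lower (-0.48, limma adjusted p = 0.0448). Of 6 tested coregulators 3 were called higher, Ncoa7, Ncoa3 and Nrip1, and 1 lower, Lcor, against 14.3% and 16.4% of all tested probe sets. With so few genes tested, the counts say little about a list as a whole. None of these lists had a call between cortex and cerebellum or between paternal-7 and maternal-7.

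Promoter windows were matched for 54 of the 70 genes, 72 windows in all. In the 69 windows of protein-coding members, the median number of CG dinucleotides was 20, against 13 in 21262 windows of all protein-coding genes, and the median GC content was 62.7%, against 56.3%. A GC box (GGGCGG or CCGCCC) was found in 59.4% of the member windows, against 46.2% of all. Motifs of the factors themselves were searched on both strands. The nuclear receptor half-site AGGTCA was found in 15.9%, against 14.7%, and the Sox site ACAAAG in 21.7%, against 16.8%. The forkhead site TGTTTAC was in 2.9%, against 3.01%, the E-box CANNTG in 72.5%, against 69%, and the RFX half-site GTTGCC in 13%, against 12.6%. The T-box half-site AGGTGT was in 14.5%, against 12.7%, and the NFI half-site TTGGCA in 11.6%, against 13.1%. Shares are of windows, and a gene can have several. Sox6 has several, most of them with the Sox site, so it weighs more in that share than a gene with a single window. All motifs are matches of letters, with no measure of binding in the data. Besides Foxl2 and Foxl2os, Sox6 and Sox6os had starts close together, 932 bases apart on chromosome 7.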

How the data were processed

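RNA of 8 brain samples was measured on 1 Affymetrix 430B array each. Per the submitters' processing notes the deposited intensity values, which are linear and carry no detection calls, came from MAS5 software; no source used here names its version. Between the 2nd and 98th percentiles the mean was 497.3 to 498.0 on every array, and no scaling was added. Precision is limited by there being 8 arrays.

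Control probe sets (64) were set aside. Gene names came from the platform annotation: 14661 probe sets had 1 symbol, 245 several and 7605 none. The members and the gene lists were chosen with earlier results of these data known. Signals were taken as log2(signal + 58.5) (the constant is the 20th percentile of an array, as the median of 8). Probe sets above the array median on 2 or more arrays entered a limma fit (limma 3.58.1, R 4.3.3; lmFit and eBayes, context and duplication as terms, 3 residual degrees of freedom). The Benjamini-Hochberg adjustment ran over 13221 probe sets, with a threshold of 0.05. The code was tested on simulated data. An "at least" fold sets the lower side's signals no lower than their array medians.

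Named with values were called members whose sides do not overlap, ranked by log2 difference, with 1 probe set a gene and then the gene's other probe sets. Named besides were called members with overlapping sides, the largest differences between duplications with 1 sign in 4 of 4 contexts, tested members on chromosomes 7 and 15, and the probe set with the highest signal of each larger family. Members of the comparison of cortex and cerebellum, where none was called, and Tbx3, Tbx4, Foxd2 and Neurod4 outside these rules were chosen after their values were seen. Promoter windows are RefSeq's, on GRCm38.p6; the files name no genome build. Alternatives were another scaling, pseudocount, filter and variance model, no duplication term, and leaving out each array.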

Additional observations from a re-analysis of the deposited data

How the results depend on the processing

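The number of members called in the neonatal against embryonic comparison (22) was 19 to 31 under the other scalings, pseudocounts, filters and variance model. Without 1 array it was never higher than 22, and the share of all probe sets called was below the 30.7% of the main fit each time. With all arrays kept, that comparison called from 14.5% of all probe sets (no filter) to 51.4% (strict filter). The F test over contexts (26) gave 17 of 82 with a floor of 1 and no pseudocount, against 16.8% of all. With no filter it gave 10 of 129, against 7.98% of all. Without 1 array it gave 3 to 20: 3 without the paternal-7 and 13 without the maternal-7 array at 13.5 dpc, 5 and 8 without those of cortex, and 6 and 9 without those of cerebellum. The comparison of 15.5 with 13.5 dpc (6) gave 3 with a smaller pseudocount, 0 with a floor of 1 and 0 with no filter. The shares of all probe sets called there were 4.39%, 3.47% and 0.92%. It gave 10 of 60 with a strict filter, against 19.3% of all, and 12 of 82 with a variance trend, against 10.7%. On the embryonic arrays alone it gave 0, against 0% of all. Without 1 array it gave fewer than 6 in each fit, and the share of all probe sets called was also below the 6.59% of the main fit each time. Between cortex and cerebellum, Nfib probe sets A and C came under the threshold with a strict filter and with a variance trend. No member did under any other setting run. The duplication and its difference between stages had 0 calls in every fit. No filter tested 22511 probe sets and the strict filter 7017. Of 275 repeats for members named in a context comparison 190 stayed on the same side of the threshold and 85 lost their call with the same sign. An array left alone in its context was assumed to vary like the others. The fit already sets the 2 arrays of a context against each other through its context and duplication terms, and the labels carry no replicate numbers to serve as a further block. The causes of these changes were not tested, apart from the fewer arrays or other probe sets in the fit. Low signals limit the calls: 47 of 129 member probe sets were not tested.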
